A study of Homo sapiens with 18 samples.

Results

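The genes described here are the expressed members of the ZNF series, that is, genes whose name is ZNF followed by a number. They were chosen by level: a name was taken when it had at least 1 protein_coding transcript and when its transcript TPM (a length-scaled share of the library's transcripts), summed by name, averaged at least 5 over all 18 samples. By this rule 208 genes were selected, of 469 ZNF names with a protein_coding transcript and of 32490 gene names in the whole table. The table came from spheroidal aggregates of 2 human brain tumour lines, U87 mg (glioblastoma) and DAOY (medulloblastoma), which were embedded in a gel for 24 h and held in channels under a direct current electric field of 250 V/m for 2 h or 8 h, or kept without field (0 h). Each sample pooled 3 channels, and each combination of line and time had 3 samples, so that U87 mg at 0 h, 2 h and 8 h and DAOY at 0 h, 2 h and 8 h make 6 groups. No gene was edited and no drug was added in any group, and the aggregates of each line came from 1 established line rather than from separate tumours. Nothing in the labels says that the 3 samples of a group came from separate cultures, so p-values measure the spread between these samples only.

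ZNF genes encode proteins built around zinc fingers, mostly of the Cys2-His2 kind, in which pairs of cysteines and histidines hold a zinc ion and each finger can read a short stretch of DNA. Many of them, above all those in the gene clusters of chromosome 19, also carry a KRAB box, which binds the corepressor TRIM28 and through it SETDB1 and heterochromatin proteins, and a known task of such KRAB proteins is the silencing of transposable elements. Others have no KRAB box and act as promoter activators, as partners of chromatin enzymes, as RNA-binding proteins or in the spindle. Several copies within a cluster are close paralogs, so reads shared between them were divided by the authors' quantification and their single values are less certain than their sum.

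The libraries held 8341976 to 15610886 estimated counts. Among the glial markers VIM, CD44 and CHI3L1 were present in U87 mg, at medians of 4561, 2903 and 96.8 TPM, whereas GFAP, S100B, OLIG2, SOX2 and AQP4 had medians of 0 to 0.958 TPM. In DAOY the granule precursor genes ZIC1 and ZIC2 had medians of 12.2 and 10.8 TPM, BARHL1, NEUROD1 and GLI1 had a median of 0, MYCN had 0.580, GLI2 had 1.05, and ATOH1 was not used here. PTPRC, CDH5 and EPCAM stayed at or under 2.44 TPM in every library, CD68 was at 247 to 602 TPM in U87 mg and 10.8 to 43.9 in DAOY, KRT8 was at 0.744 to 3.03 and 21.8 to 44.1, and PECAM1 at 0.598 to 2.30 and 5.46 to 12.9. The part of these markers in the results below was not tested. In pooled aggregates, fewer cells with a transcript and less of it per cell cannot be told apart.

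Most expressed ZNF genes were weakly transcribed. Their mean levels ran from 5.07 to 253 TPM with a median of 9.60, against a median of 29.4 TPM for the other 9936 protein-coding genes of at least 5 TPM. There were 110 genes between 5 and 10 TPM, 59 between 10 and 20, 29 between 20 and 50, and 10 at 50 TPM or more. The rule fixes the lower end: ZNF711 at 5.07 and ZNF557 at 5.09 TPM lay just inside it, and ZNF264 and ZNF530, at 4.96 and 4.97 TPM, just outside. The 12 most abundant genes were, in order, ZNF207, ZNF706, ZNF146, ZNF664, ZNF638, ZNF410, ZNF655, ZNF644, ZNF639, ZNF131, ZNF143 and ZNF384. None of these 12 encodes a protein with the KRAB pattern described below. ZNF207, a microtubule- and kinetochore-associated protein also known as BuGZ, was far ahead in DAOY, where its group means were 279, 333 and 414 TPM at 0, 2 and 8 h. In U87 mg its means were 133, 141 and 219 TPM, beside 150, 149 and 133 TPM for ZNF706.

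By sequence, 112 of the 208 genes encode a protein in which a letter pattern typical of the KRAB A box was found ahead of the first finger, and 11 encode a SCAN pattern, a dimerization domain. The number of Cys2-His2 finger patterns ranged from 0 to 35 with a median of 10, and was highest in ZNF142, a protein of 1687 residues. On chromosome 19 lay 89 of the 208 genes, or 42.8%, compared with 5.97% of all protein-coding genes of at least 5 TPM, and 71 of these 89 had the KRAB pattern. Genes with the pattern had lower levels (median 8.12 TPM) than those without (median 13.7 TPM). These are pattern matches in the GENCODE 29 translations and will miss diverged boxes.

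The first question of the design was how the exposed samples differed from the 0 h samples within each line. No sample was kept without field for 2 h or 8 h. The field and the added time in the channel therefore cannot be told apart in these comparisons. After 2 h no ZNF gene passed the test in either line. In U87 mg 192 of the 208 genes were tested, and none was called higher or lower in the quasi-likelihood test of edgeR (Benjamini-Hochberg adjustment) over all 14106 genes, where 0% of all genes were called in either direction. Without adjustment 17 of the 192 had p under 0.05, 14 of them higher, beside 8.78% of all genes, and DESeq2 also called none. The smallest adjusted p was 0.495. In DAOY, where all 208 were tested, none was called among 15396 genes, again with 0% of all genes in each direction, 15 had an unadjusted p under 0.05, 13 of them lower, beside 2.75% of all genes, and DESeq2 and limma called none. The U87 mg count depended on 1 library: without replicate 0 of the 0 h group 7 ZNF genes were called, 5 higher and 2 lower, among them ZNF146, ZNF281 and ZNF644, which is 2.58% and 1.03% of those tested beside 2.58% and 5.80% of all 14487 genes in that fit, and so at or under the background.

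After 8 h a small set of ZNF genes had changed in each line. In U87 mg 3 were called higher, namely ZNF143, ZNF207 and ZNF638, beside 0.95% of all genes, and 3 lower, namely ZNF397, ZNF7 and ZNF287, beside 0.773%. In DAOY 5 were called higher, namely ZNF143, ZNF609, ZNF207, ZNF608 and ZNF121, beside 2.34% of all genes, and 10 lower, beside 3.5%, a split that became 4 higher and 20 lower with library totals as the only scaling. The lower ones, by p, were led by ZNF287, ZNF25, ZNF181, ZNF425, ZNF197 and ZNF7, followed by ZNF320, ZNF415, ZNF397 and ZNF362. The shares of the ZNF genes, 1.56% in each direction in U87 mg and 2.4% and 4.81% in DAOY, were thus near the background of all genes. The median log2 change of the ZNF genes was -0.08 in U87 mg (all genes -0.00) and -0.05 in DAOY (all genes -0.01). In DAOY the mitochondrial genes took 5.97 to 8.44% of the counts at 8 h and 2.92 to 5.70% at 0 h, and retained-intron transcripts took 5.99 to 7.09% of the ZNF genes' TPM at 8 h and 4.93 to 5.60% at 0 h, and their part in the changes was not tested. In U87 mg these shares overlapped between 0 h and 8 h. The lists of called genes were sensitive to single libraries. In U87 mg the 6 calls became 0 on leaving out replicate 2 of the 0 h or of the 8 h group, 2 on leaving out replicate 1 of the 0 h or of the 2 h group, 3 on leaving out replicate 0 or 2 of the 2 h group or replicate 1 of the 8 h group, and 14 on leaving out replicate 0 of the 0 h group. In DAOY the 15 calls became 9 and 3 without replicates 1 and 2 at 0 h, 8 and 5 without replicates 1 and 2 at 2 h, and 3, 1 and 2 without replicates 0, 1 and 2 at 8 h.

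Of the 192 ZNF genes tested in both lines 5, or 2.60%, were called at 8 h in the same direction and none in opposite directions, beside 107 of all 13138 genes, or 0.814%, in the same direction and 1 in opposite directions. ZNF143 and ZNF207 rose, and ZNF287, ZNF397 and ZNF7 fell.

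ZNF143 (ENSG00000166478.9, chr11:9460319-9528524, plus strand, GRCh38) encodes a 7-finger activator that sits at the promoters of many housekeeping and small nuclear RNA genes. In U87 mg it stood at 37.0, 34.0 and 24.9 TPM at 0 h, at 35.9, 32.5 and 31.4 TPM at 2 h, and at 61.1, 63.8 and 73.2 TPM at 8 h. In DAOY the values were 33.8, 25.6 and 23.0 TPM at 0 h, 31.6, 32.6 and 37.1 TPM at 2 h, and 78.2, 85.1 and 93.2 TPM at 8 h. Every 8 h sample thus lay above every 0 h and 2 h sample of its line. The log2 fold change at 8 h was 1.15 (SE 0.14) in U87 mg, with an adjusted p of 0.0084 from the quasi-likelihood test of edgeR (Benjamini-Hochberg adjustment), and 1.77 (SE 0.16) in DAOY, with an adjusted p of 0.0038. The difference of 0.63 (SE 0.21) between the lines did not pass after adjustment (adjusted p = 0.34, same test). In DAOY the call held in 11 of 11 alternative settings and in 9 of 9 fits with a library left out; in U87 mg it held in 8 of 11 and 7 of 9, and was lost on leaving out replicate 2 of the 0 h or 8 h group (adjusted p up to 0.075).

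The ZNF143 signal was spread over coding and non-coding transcripts. The most abundant of its transcripts, ENST00000532305, is annotated as a retained intron and had 14.1, 12.9 and 6.87 TPM at 0 h and 24.3, 25.3 and 37.5 TPM at 8 h in U87 mg, and 7.25, 11.8 and 8.27 TPM and 36.0, 40.3 and 43.5 TPM in DAOY, with no overlap in either line. The coding transcript ENST00000396602 moved from 14.5, 7.25 and 8.40 TPM to 14.1, 21.6 and 23.3 TPM in U87 mg and from 6.34, 7.78 and 6.70 TPM to 18.5, 26.2 and 23.9 TPM in DAOY. Its groups overlapped in U87 mg and not in DAOY. Single transcripts were not tested.

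ZNF207 (ENSG00000010244.18, chr17:32350117-32381886, plus strand) stood at 123, 145 and 131 TPM at 0 h and at 209, 201 and 247 TPM at 8 h in U87 mg. In DAOY it stood at 248.6, 268.8 and 318.7 TPM at 0 h, at 328, 340 and 331 TPM at 2 h, and at 424, 404 and 414 TPM at 8 h. No 8 h sample overlapped the 0 h samples of its line, and in DAOY the 2 h samples lay between both. The log2 fold change was 0.75 (SE 0.13, adjusted p = 0.022) in U87 mg and 0.61 (SE 0.12, adjusted p = 0.023) in DAOY in the quasi-likelihood test of edgeR (Benjamini-Hochberg adjustment). It was lost in U87 mg without replicate 1 or 2 at 0 h or replicate 2 at 8 h, with adjusted p up to 0.12, and in DAOY in 5 of 9 such fits, with adjusted p up to 0.090.

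The rise of ZNF207 lay mainly in 1 of its 2 most abundant coding transcripts. ENST00000394673 went from 79.2, 103 and 90.3 TPM at 0 h to 155, 157 and 196 TPM at 8 h in U87 mg, and from 134, 157 and 201 TPM to 330, 283 and 298 TPM in DAOY. ENST00000321233 had 25.1, 28.0 and 27.1 TPM at 0 h and 35.3, 31.6 and 39.5 TPM at 8 h in U87 mg, and in DAOY 99.3, 97.1 and 105 TPM at 0 h and 77.6, 94.98 and 92.8 TPM at 8 h. The first transcript was higher in every 8 h sample of both lines, and the second was higher in every 8 h sample of U87 mg and lower in every 8 h sample of DAOY than in the 0 h samples of its line. How reads were divided between the transcripts of a gene was the authors' estimate.

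**Figure D1:**
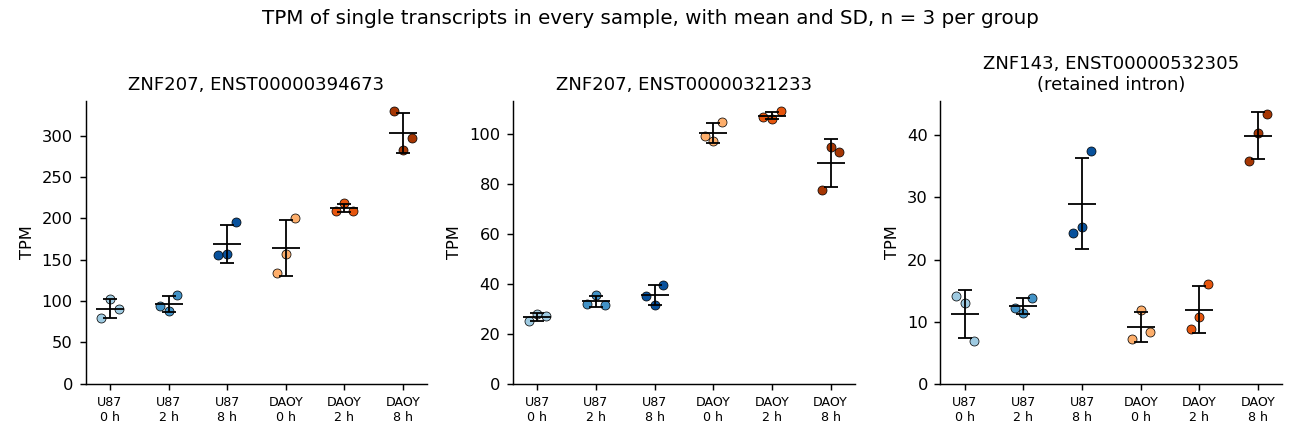
TPM of 2 coding transcripts of ZNF207 and of the retained-intron transcript of ZNF143 in each of the 18 samples (points), with the mean and SD of each group of 3 (bars). ENST00000394673 and ENST00000532305 lie higher in every 8 h sample than in every 0 h sample of the same line, and ENST00000321233 lies between 77.6 and 94.98 TPM at 8 h in DAOY, under its 0 h samples.

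Among the genes that fell in both lines, ZNF287 and ZNF397 encode SCAN-type finger proteins and ZNF7 a KRAB-type one. ZNF287 (ENSG00000141040.14, chr17:16551387-16569206, minus strand) was at 16.8, 17.6 and 14.5 TPM at 0 h and at 4.90, 11.4 and 6.91 TPM at 8 h in U87 mg. In DAOY it was at 13.9, 13.5 and 26.4 TPM at 0 h and at 4.95, 6.70 and 7.04 TPM at 8 h. The groups did not overlap in either line, although 1 DAOY sample at 0 h lay far above the other two. Its log2 fold changes were -1.26 (SE 0.28, adjusted p = 0.042) and -1.64 (SE 0.23, adjusted p = 0.0080) in the quasi-likelihood test of edgeR (Benjamini-Hochberg adjustment). Most of its TPM came from the retained-intron transcript ENST00000498796, at 9.07 to 13.3 TPM at 0 h and 3.44 to 7.61 TPM at 8 h in U87 mg. The DAOY call held in 11 of 11 alternative settings and was lost in 1 of 9 fits with a library left out (replicate 1 at 8 h, adjusted p = 0.055). The U87 mg call held in 6 of 11 and in 2 of 9.

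ZNF397 (ENSG00000186812.12, chr18:35241030-35267133, plus strand), which is found at centromeres, was at 13.4, 10.98 and 11.2 TPM at 0 h and 6.38, 7.25 and 5.07 TPM at 8 h in U87 mg. In DAOY it was at 10.7, 7.51 and 7.77 TPM and at 4.71, 2.19 and 4.65 TPM. The groups did not overlap, and the log2 fold changes were -1.12 (SE 0.20, adjusted p = 0.024) and -1.41 (SE 0.34, adjusted p = 0.039) in the quasi-likelihood test of edgeR (Benjamini-Hochberg adjustment). The DAOY call was lost in each of the 9 fits with a library left out, with adjusted p from 0.051 to 0.12. ZNF7 was at 17.8, 18.01 and 16.3 TPM at 0 h and 9.31, 11.4 and 10.2 TPM at 8 h in U87 mg, and at 13.6, 16.9 and 17.7 TPM and 9.88, 7.51 and 9.34 TPM in DAOY. Its changes were the most alike of the 5, at -0.73 (SE 0.15) and -0.76 (SE 0.17), with adjusted p of 0.038 and 0.033 in the same test. They were lost in 8 and 7 of 9 fits with a library left out, and the difference between lines was -0.02 (SE 0.21).

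**Figure D2:**
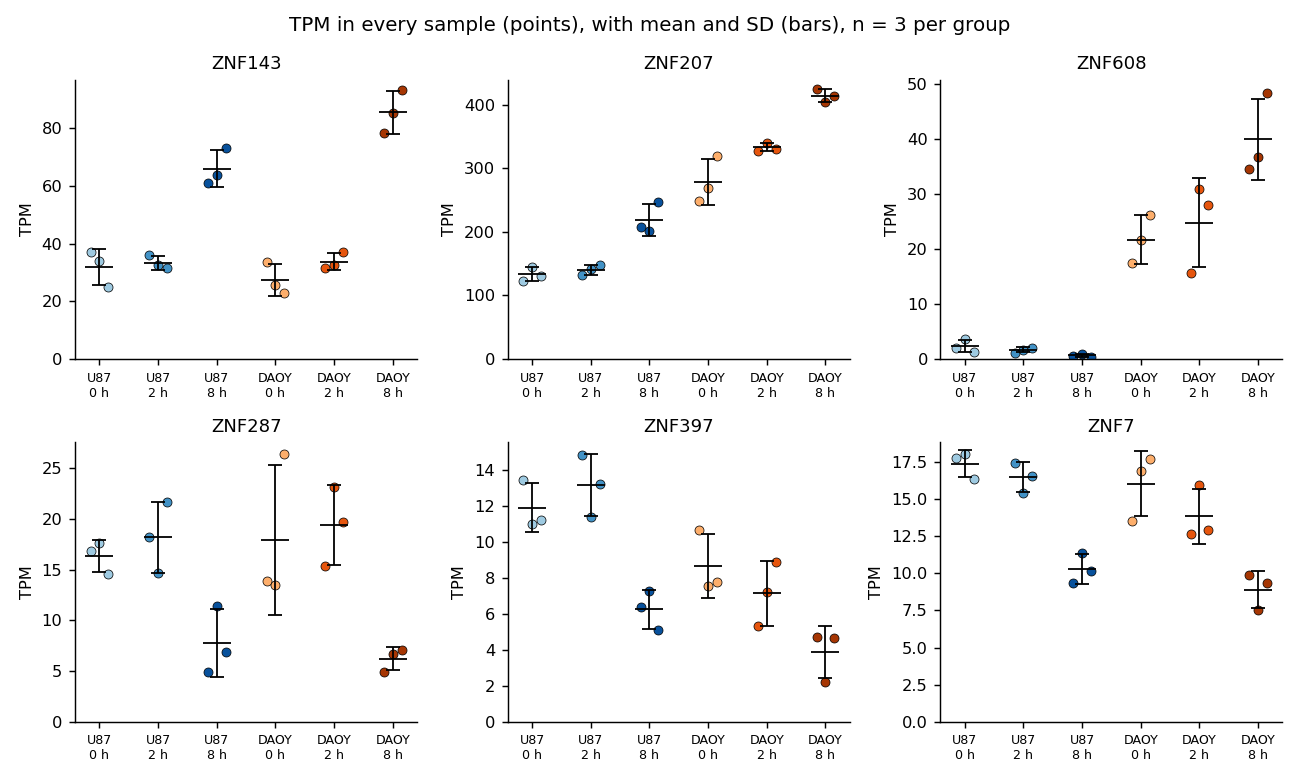
TPM of 6 ZNF genes in each of the 18 samples (points), with the mean and SD of each group of 3 (bars), on linear axes from 0. ZNF143 and ZNF207 are higher, and ZNF287, ZNF397 and ZNF7 lower, in every 8 h sample than in every 0 h sample of the same line, whereas ZNF608 is at 17.4 to 48.3 TPM in DAOY apart from 1 sample at 15.6 and at or under 3.59 TPM in U87 mg.

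Other changes were called in a single line. ZNF638, an RNA-binding nuclear protein that takes part in splicing and in silencing of foreign DNA, was at 62.6, 54.3 and 56.3 TPM at 0 h and 69.8, 84.8 and 124 TPM at 8 h in U87 mg. Its log2 fold change was 0.67 (SE 0.14, adjusted p = 0.039 in the quasi-likelihood test of edgeR (Benjamini-Hochberg adjustment)), and 0.22 (SE 0.17, adjusted p = 0.49) in DAOY, where it began at 102 to 132 TPM. The U87 mg call was lost in 7 of 9 fits with a library left out. It held in 5 of 11 alternative settings and was lost on protein_coding transcripts. Retained-intron transcripts made up 56.2 TPM of the 124 TPM sample, against 15.95 and 16.4 TPM in the other 8 h samples. Coding transcripts of ZNF638 were at 36.6, 38.0 and 36.7 TPM at 0 h and 47.3, 56.1 and 58.3 TPM at 8 h. ZNF609, which works with cohesin-loading and Integrator proteins, changed by 0.67 (SE 0.13, adjusted p = 0.022) in DAOY, from 8.15, 12.5 and 12.7 TPM to 18.04, 15.3 and 18.05 TPM. In U87 mg its log2 value was 0.50 (SE 0.13, adjusted p = 0.084). ZNF121 went from 9.69, 9.34 and 10.9 TPM to 15.5, 29.4 and 18.7 TPM in DAOY, a log2 change of 1.18 (SE 0.30, adjusted p = 0.047), and in U87 mg its log2 value was 0.21 (SE 0.21) without passing. The DAOY call of ZNF121 held in 6 of 11 alternative settings and in 2 of 9 fits with a library left out.

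ZNF608, the paralog of ZNF609, had opposite signs in the lines. In DAOY it was at 17.4, 21.6 and 26.1 TPM at 0 h and at 34.5, 36.8 and 48.3 TPM at 8 h, a log2 change of 1.09 (SE 0.23) with an adjusted p of 0.026 in the quasi-likelihood test of edgeR (Benjamini-Hochberg adjustment). In U87 mg it was at 2.07, 3.59 and 1.37 TPM at 0 h and at 0.612, 0.935 and 0.395 TPM at 8 h, a log2 change of -1.17 (SE 0.39) with an adjusted p of 0.16. The difference between lines was 2.27 (SE 0.44), and with an adjusted p of 0.097 it did not pass, although it had the smallest p of all 208 genes. Over the 208 genes the test of the difference called none, 0.0121% of all 16482 genes were called higher in DAOY and 0% lower, and 14 ZNF genes had an unadjusted p under 0.05. By other methods limma called none, DESeq2 called ZNF608 (adjusted p = 0.00030), the fit with no filter on low counts called ZNF608 and ZNF395, and the fit on protein_coding transcripts called ZNF25.

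Of the 7 genes called lower in DAOY alone 6 had the KRAB pattern. ZNF425, with 19 fingers, went from 10.9, 8.86 and 10.6 TPM to 3.88, 3.42 and 6.49 TPM (log2 change -1.35, SE 0.28), and in U87 mg its log2 change was -1.11 (SE 0.29, adjusted p = 0.079 in the quasi-likelihood test of edgeR (Benjamini-Hochberg adjustment)). ZNF181 went from 10.4, 14.6 and 14.0 TPM to 7.28, 7.17 and 5.90 TPM, and ZNF197 from 13.9, 13.0 and 14.0 TPM to 8.05, 6.22 and 7.83 TPM. For these 3 genes no 8 h sample of DAOY reached a 0 h sample. ZNF25 was called lower at a low level, from 3.42, 2.46 and 1.81 TPM to 1.55, 0.966 and 1.44 TPM, and is a member through U87 mg, where it was at 7.67 to 12.6 TPM at 0 h. Of the remaining genes ZNF320 was called although its TPM groups overlapped (10.1 to 13.8 TPM at 0 h and 8.77 to 12.4 TPM at 8 h).

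Taken by protein class, the 8 h calls in the upward direction, 3 in U87 mg and 5 in DAOY, fell on genes without the KRAB pattern. With the pattern, 0 of 98 genes were called higher and 1 lower in U87 mg, and 0 of 112 higher and 7 lower in DAOY. The shares of all genes were 0.95% higher and 0.773% lower in U87 mg and 2.34% and 3.5% in DAOY, so a count of 0 or 1 in a class of this size is close to the background. Without the pattern, 3 of 94 were called higher and 2 lower in U87 mg, and 5 of 96 higher and 3 lower in DAOY. The median log2 change at 8 h was -0.11 with the pattern and -0.01 without in U87 mg, and -0.15 and 0.03 in DAOY. The difference between the classes was not tested. Of the 11 SCAN genes 2 were called lower in U87 mg and 3 in DAOY, and none higher.

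By role, among 7 expressed ZNF genes that act on RNA or ribosomes, 2 were called higher at 8 h in U87 mg (ZNF207 and ZNF638) and 1 in DAOY (ZNF207), with medians of 0.38 and 0.22 on the log2 scale. These counts stand beside 0.95% and 2.34% of all genes called higher, and the lists were chosen with earlier results known, so they are a description. ZNF598, a ubiquitin ligase that senses collided ribosomes, had log2 changes of 0.41 (SE 0.30) and 0.39 (SE 0.29), and ZNF622, which takes part in maturation of the large ribosomal subunit, of 0.38 (SE 0.14) and -0.28 (SE 0.21), and none of these passed. Of 10 genes known as partners of chromatin complexes, ZNF143 was called in both lines and ZNF609 in DAOY. ZNF335, a subunit of a histone methyltransferase complex, had 0.66 (SE 0.26) and 0.83 (SE 0.25) without passing, with adjusted p of 0.23 and 0.086 in the quasi-likelihood test of edgeR (Benjamini-Hochberg adjustment). Of 7 regulators of growth and differentiation, such as ZNF24, ZNF148, ZNF281, ZNF521 and ZNF703, none was called. None of the 30 genes of the KRAB corepressor machinery, from TRIM28 and SETDB1 to the HP1 proteins and the NuRD complex, was called after 2 h or 8 h in either line.

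The 8 h comparisons of both lines share no samples. Over the 192 ZNF genes tested in both, the log2 changes had a Pearson r of 0.646 and a Spearman rho of 0.638, and 69.8% had the same sign. Over all 13138 genes tested in both lines the values were 0.474, 0.501 and 67.6%. These describe genes within 1 pair of contrasts, and genes are not independent replicates.

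**Figure D3:**
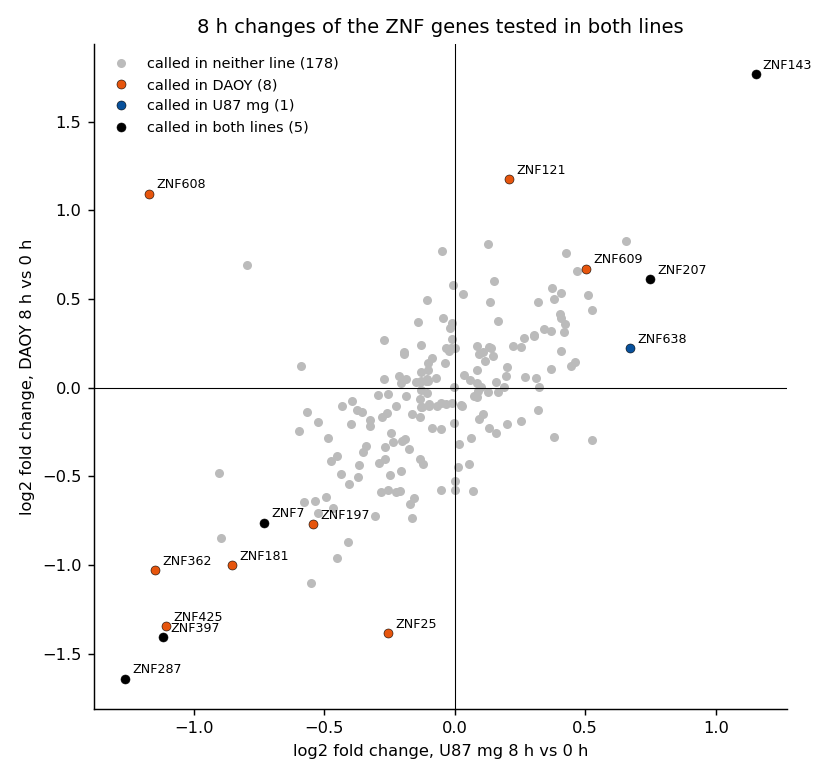
Log2 fold change at 8 h against 0 h in U87 mg (horizontal) and DAOY (vertical) of the 192 ZNF genes tested in both lines, each point a gene, coloured by whether it was called at an FDR below 0.05. The 5 genes called in both lines lie in the lower left and upper right, and ZNF608 is the called gene with opposite signs.

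The second contrast of the design is between the unexposed lines, and here the ZNF genes differed widely. At 0 h 121 of the 208 genes were called higher in DAOY and 22 lower in the quasi-likelihood test of edgeR (Benjamini-Hochberg adjustment), 84 and 12 of them by at least 2-fold, beside 32.8% of all 16482 genes higher and 27.9% lower. The median log2 difference, DAOY minus U87 mg, was 0.76 over the ZNF genes and 0.05 over all genes. The summed level of the 208 genes was 4201 to 4461 TPM in the 3 DAOY samples at 0 h and 2588 to 2709 TPM in those of U87 mg, so the lines did not overlap. Leaving out any library kept the count of calls between 135 and 145, and other tools, scalings and filters kept it between 121 and 146.

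Part of this count follows from the rule. A gene can reach a mean of 5 TPM over 18 samples through 1 line alone. Its mean over all samples must then be lower in the other line. In this way 68 genes averaged at least 5 TPM in DAOY only and 5 in U87 mg only. Of the 68, 66 were higher in DAOY at 0 h and 61 were called so. Over the 135 genes with at least 5 TPM in both lines, 60 (44.4%) were called higher in DAOY and 18 (13.3%) lower, with a median difference of 0.35, beside 25.2% and 31.4% of the 8846 protein-coding genes that met the same limit in both lines (median -0.09). Of the ZNF genes under the threshold that were tested, 147 of 233 were called higher in DAOY and 13 lower, with a median of 1.63. The shares of all genes were 32.8% and 27.9%. This set has a similar limit, since a gene could pass the count filter through 1 line alone. In the fits of single lines 232 of these genes were tested in DAOY and 136 in U87 mg.

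**Figure D4:**
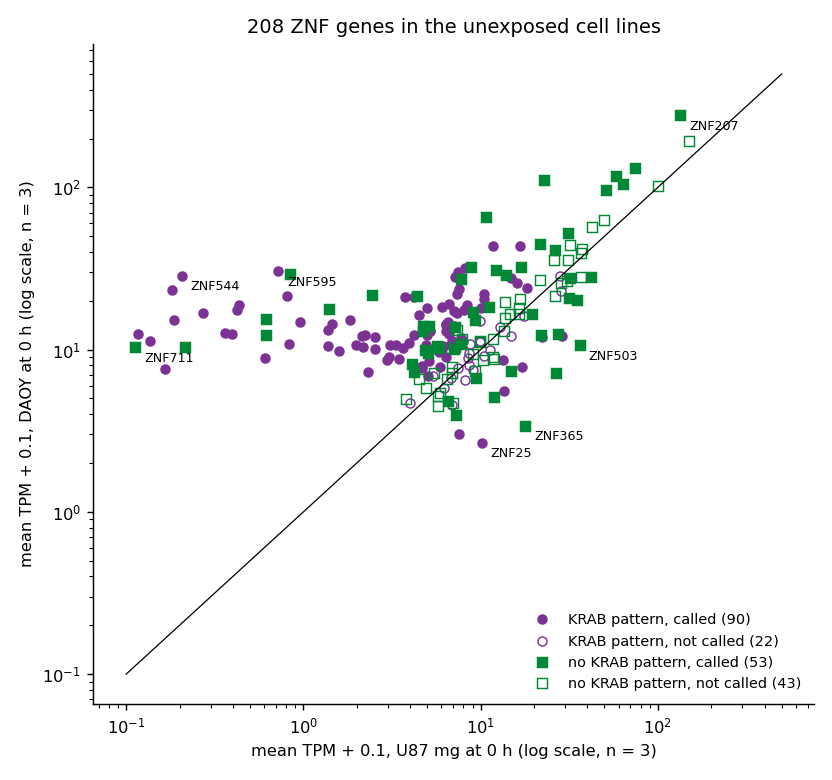
Mean TPM plus 0.1 of the 208 ZNF genes at 0 h in U87 mg (horizontal) and DAOY (vertical), n = 3 each, on log axes, with equality drawn as a line. Purple circles have the KRAB pattern and green squares do not, filled symbols are called at an FDR below 0.05, and the points at the left are genes near 0 TPM in U87 mg but not in DAOY.

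The genes with the KRAB pattern lay further to the DAOY side. Of the 112, 83 were called higher in DAOY and 7 lower, with a median log2 difference of 1.20, and of the 96 without the pattern 38 and 15, with a median of 0.34. Within the 135 genes expressed in both lines the counts were 36 higher and 4 lower of 59 with the pattern (median 0.78) and 24 and 14 of 76 without (median 0.15). The summed level of the KRAB class at 0 h was 752 TPM in U87 mg and 1569 TPM in DAOY, and that of the other class 1915 and 2730 TPM. The difference between the classes was not tested.

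The most extreme genes were nearly absent in U87 mg. Under 1 TPM in all 9 U87 mg samples were 13 of the 208 genes, namely ZNF595, ZNF544, ZNF677, ZNF140, ZNF28, ZNF260, ZNF320, ZNF525, ZNF667, ZNF880, ZNF618, ZNF761 and ZNF711, which were all at 7.71 TPM or more in every DAOY sample. A gene under 1 TPM in every U87 mg sample could reach a mean of 5 TPM only through DAOY. Its high level there thus follows in part from the rule. No member was under 1 TPM in all 9 DAOY samples. Among all 469 ZNF names, 134 were under 1 TPM throughout U87 mg and 27 throughout DAOY, 25 of them in both, and 77 were under 1 TPM in every U87 mg sample while at least at 1 TPM in every DAOY sample. The reverse held for 1. These counts were not set beside the shares of all genes that met the same limits, so they describe the ZNF names only.

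ZNF544 (ENSG00000198131.13, chr19:58228594-58277495, plus strand), a KRAB gene with 12 fingers, had 1, 1 and 4 counts in U87 mg at 0 h and 467, 533 and 479 in DAOY, or 0.067, 0.062 and 0.187 TPM against 28.0, 26.4 and 30.7 TPM. The log2 difference was 8.12 (SE 0.30, adjusted p = 1.7e-12 in the quasi-likelihood test of edgeR (Benjamini-Hochberg adjustment)). ZNF28 was at 0.080, 0.234 and 0.204 TPM against 16.4, 17.7 and 15.9 TPM, with a log2 difference of 6.49 (SE 0.28). ZNF761 had 3 counts in the 0 h samples of U87 mg together and 808 in those of DAOY, which gives a ratio, scaled to library totals, of 342 with a 95% exact interval of 117 to 1661. ZNF711, an X-linked gene without a KRAB box whose protein works with a histone demethylase, had 1 count against 779, and ZNF880 had 1 against 318. Their ratios of 989 and 404 have intervals with lower ends of 177 and 71.9 and cover counting error only. ZNF618, ZNF260 and ZNF415, which are named here for their small p rather than by size, had log2 differences of 6.70 (SE 0.36), 4.82 (SE 0.25) and 5.48 (SE 0.29), and ZNF415 was at 0.301 to 1.05 TPM in U87 mg at 0 h. These values did not overlap between the lines in any of these genes. All genes named in this paragraph averaged under 5 TPM in U87 mg and passed the rule on level through DAOY alone. Their direction, in the mean over all samples, was thus fixed by the rule.

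Among abundant genes, ZNF644, a finger protein that recruits the histone methyltransferases EHMT1 and EHMT2, was at group means of 22.7, 26.0 and 22.0 TPM in U87 mg and 111, 121 and 107 TPM in DAOY, a log2 difference at 0 h of 2.14 (SE 0.19). ZNF326, part of a complex that couples transcription to splicing, differed by 2.31 (SE 0.17), and ZNF274, which binds the 3′ ends of other ZNF genes with SETDB1, by 1.47 (SE 0.18). All 3 passed the test. ZNF274 was less abundant, with a mean of 8.45 TPM over all samples. It averaged under 5 TPM in U87 mg and passed the rule through DAOY alone, which fixed its direction in the mean over all samples. The other retroelement and imprinting regulators of the list, ZNF91, ZNF93 and ZNF445, had means under 5 TPM.

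In the opposite direction ZNF365, a protein of genome stability, was at 17.3, 16.4 and 19.8 TPM in U87 mg at 0 h and 3.08, 3.23 and 3.54 TPM in DAOY, a log2 difference of -2.69 (SE 0.16, adjusted p = 2.8e-10 in the quasi-likelihood test of edgeR (Benjamini-Hochberg adjustment)). ZNF503, a developmental repressor, was at 30.9, 41.4 and 36.2 TPM against 7.97, 13.0 and 10.7 TPM (-1.85, SE 0.18). ZNF25 differed by -2.11 (SE 0.24), ZNF248 by -1.56 (SE 0.20), ZNF778 by -1.42 (SE 0.18) and ZNF175 by -1.25 (SE 0.16). Of these genes ZNF365, ZNF25 and ZNF778 averaged under 5 TPM in DAOY and passed the rule through U87 mg alone. They had to be lower in DAOY in the mean over all samples. ZNF217, a CoREST-associated oncoprotein, was lower in DAOY by 0.83 on the log2 scale, and ZNF395 by 1.88. ZNF143, the gene with the clearest rise at 8 h, was called lower in DAOY at 0 h (-0.47, SE 0.15, adjusted p = 0.014 in the same test), while its 0 h TPM values overlapped between the lines.

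Of the 30 corepressor genes that KRAB proteins use, 15 (50%) were called higher in DAOY at 0 h and 6 (20%) lower, with a median of 0.40. This stands beside 32.8% and 27.9% of all genes and a median of 0.05. Among the 8846 protein-coding genes with at least 5 TPM in both lines the shares were 25.2% and 31.4%, with a median of -0.09. The split of the list thus leaned to DAOY beside both backgrounds. The list was chosen with earlier results known, and the difference was not tested. TRIM28 was at 142, 317 and 291 TPM in U87 mg and 257, 715 and 446 TPM in DAOY, overlapping, with a log2 difference of 0.71 (SE 0.30, adjusted p = 0.046 in the quasi-likelihood test of edgeR (Benjamini-Hochberg adjustment)). SETDB1, the histone H3 lysine 9 methyltransferase it recruits, differed by 0.98 (SE 0.16), the HP1 gene CBX3 by 1.51 (SE 0.15), the NuRD helicase gene CHD4 by 1.25 (SE 0.13), EHMT2 by 1.45 (SE 0.27) and the HUSH subunit gene MPHOSPH8 by 1.26 (SE 0.13). Lower in DAOY were UHRF1 (-1.05, SE 0.30), TRIM24 (-0.90, SE 0.15), RBBP7 (-0.84, SE 0.15), CHD3 (-0.68, SE 0.20), FAM208A (-0.65, SE 0.14) and SMARCAD1 (-0.57, SE 0.16).

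Along chromosome 19 the difference was uneven. Of the 89 ZNF genes there, 67 were called higher in DAOY and 4 lower, with a median of 1.20, and of 708 tested protein-coding genes of other names on the chromosome, which met no rule on level, 169 were higher and 162 lower (median -0.10). Of the 50 ZNF genes of the chromosome with at least 5 TPM in both lines 31 were higher and 3 lower (median 0.78), and of the 85 such genes on other chromosomes 29 and 15 (median 0.12). Between 52 and 54 Mb lay 21 expressed ZNF genes, 19 of them called higher, none lower, with a median of 2.40, and 6 of the 13 genes under 1 TPM in U87 mg are among them. Those with at least 5 TPM in both lines were ZNF614, ZNF432, ZNF841, ZNF616, ZNF836, ZNF766, ZNF480, ZNF528 and ZNF160. Their log2 differences ran from 0.02 to 2.16. The other members of the window averaged under 5 TPM in U87 mg and passed the rule through DAOY alone. They had to be higher there in the mean over all samples. The 10 further ZNF genes tested in this window were all called higher, and of 6 tested genes of other names there 3 were higher and 1 lower. A gene could pass the count filter through 1 line alone, which limits these counts too. A run of 5 consecutive members between 36 and 38 Mb, ZNF260, ZNF529, ZNF567, ZNF420 and ZNF383, chosen after its values were seen, had log2 differences of 3.81 to 6.48. Their U87 mg group means were 0.066 to 1.02 TPM, so all 5 passed the rule through DAOY alone. They had to be higher there in the mean over all samples. The neighbours of the run on both sides were closer to equal, with 0.76 for ZNF146 and -0.20 for ZNF574. ZNF146 was at 74.0 TPM in U87 mg at 0 h. ZNF574 had group means of 5.79, 3.81 and 4.60 TPM at 0, 2 and 8 h in U87 mg. In DAOY its means were 5.28, 6.66 and 4.83 TPM. It also passed the rule through DAOY alone, although it was not higher there at 0 h.

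**Figure D5:**
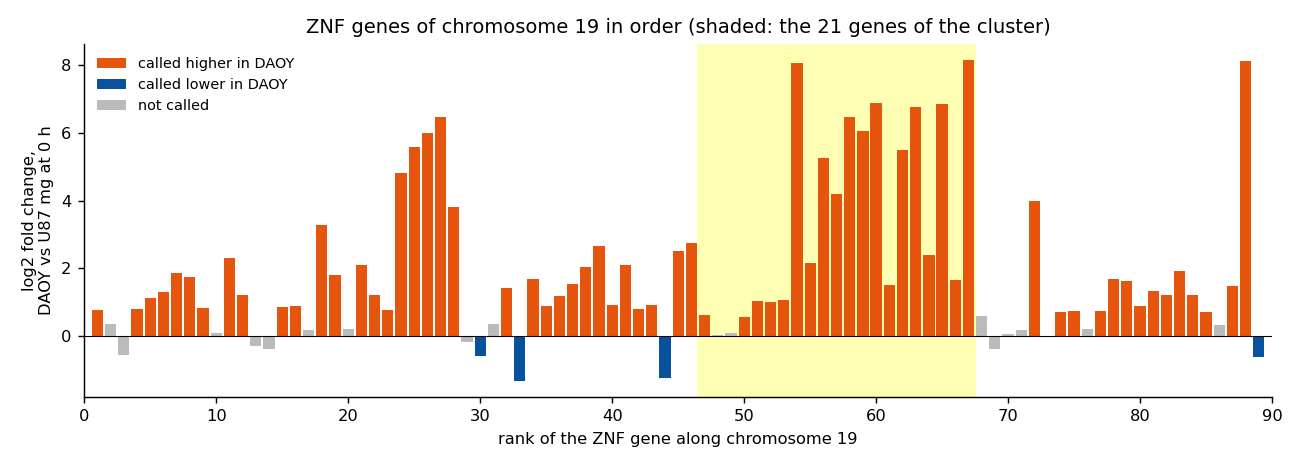
Log2 fold change of DAOY against U87 mg at 0 h for the 89 expressed ZNF genes of chromosome 19 in their order along it, as bars from 0, coloured by whether they were called. The shaded stretch is the group of 21 genes, of which 19 are called higher in DAOY, and bars above 5 also stand in a run of neighbours to its left and near the right end. Genes that passed the rule on level through DAOY alone, and so had to be higher there in the mean over all samples, are drawn too.

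Promoters of the ZNF genes were rich in G, C and CG dinucleotides. In RefSeq sequences (GRCh38.p14) from 250 bases before to 50 bases after the start, found for 183 of the 208 genes, the median GC content was 63% and the median number of CG dinucleotides 23, compared with 58.3% and 14 for the 27305 genes that have a promoter in the RefSeq table. These 27305 genes met no rule on level or on protein_coding transcripts. Family and level therefore cannot be told apart in any contrast with all promoters, here or below. The 11 promoters found for the genes under 1 TPM in U87 mg had a median of 28 CG dinucleotides, and those of genes called higher and lower in DAOY 22.5 and 23.5. The letters CCGGAAG, the core read by ETS factors, were found on either strand in 85 of the 183 promoters, or 46.4%, against 10.7% of all promoters, and in 55.9% of those with the KRAB pattern and 34.6% of those without. Of the 92 matches 79 began no further than 100 bases before the start. CCAAT was found in 42.6% (all 35.7%), GGGCGG in 67.2% (all 44.6%), CACGTG in 6.56% (all 7.43%), TGACTCA in 3.83% (all 4.92%) and TATAAA in 3.28% (all 11.95%). Among genes with at least 5 TPM in both lines, 28 of 52 with CCGGAAG were called higher in DAOY at 0 h and 6 lower (median 0.62), and 25 of 65 without it were higher and 8 lower (median 0.21), and the difference was not tested. Both strands were searched for every motif and none of these strings contains another. A match is a string of letters and not a shown binding site.

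The stretches around CCGGAAG of 6 genes that were under 1 TPM in U87 mg are printed, since these are the 6 of 11 such promoters that hold it. Each is given 5′ to 3′ on the strand on which the motif, in capitals, reads forward.
ZNF320: tggcatagacCCGGAAGcggatggcag
ZNF677: tcctgccgacCCGGAAGcggatctcgc
ZNF880: tcctggagacCCGGAAGcagattacgt
ZNF525: gcgcgcaaacCCGGAAGcagatcgcgt
ZNF544: ccgccggccaCCGGAAGcaccgccatt
ZNF595: gcgccagatcCCGGAAGccaacccctc
They lie at chr19:52897672-52897698 (minus strand), chr19:53254854-53254880 (minus), chr19:52369927-52369953 (plus), chr19:53365709-53365735 (plus), chr19:58228905-58228931 (plus) and chr4:53291-53317 (minus). The first 4 come from the group between 52 and 54 Mb.

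The upstream sequence of ZNF761, from the same group, is shown with its 19 CG dinucleotides in capitals, since it is CG-dense, lies outside every annotated GENCODE 29 exon and belongs to a gene with 0 to 5.60 counts in the U87 mg libraries. It covers the 200 bases before the start at chr19:53431784-53431983 (plus strand).
ZNF761: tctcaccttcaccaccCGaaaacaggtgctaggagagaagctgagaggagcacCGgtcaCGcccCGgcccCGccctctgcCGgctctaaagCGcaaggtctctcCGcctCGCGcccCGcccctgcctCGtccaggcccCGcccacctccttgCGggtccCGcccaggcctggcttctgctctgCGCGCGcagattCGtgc

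A full cAMP response element, TGACGTCA, was found in the promoters of 10 of the 183 genes, or 5.46%, against 1.98% of all promoters. Of these 10, ZNF143 and ZNF121 were called higher at 8 h in DAOY, beside 2.34% of all genes. In U87 mg ZNF143 was called higher, beside 0.95% of all genes. The set is small, so these counts are a description, and the ZNF121 call held in 2 of 9 fits with a library left out. ZNF335 had 0.66 in U87 mg and 0.83 in DAOY on the log2 scale without passing. The other 7, ZNF200, ZNF266, ZNF330, ZNF426, ZNF511, ZNF561 and ZNF562, had log2 changes of -0.43 to 0.24 in DAOY, none of them called. The element and the bases next to it, capitals marking the element, are shown for both called genes on the gene's strand.
ZNF143: caggcttggcTGACGTCAgttgagtggg
ZNF121: ggagcggaagTGACGTCAgcgcacaatc
They lie at chr11:9460838-9460865 (plus strand) and chr19:9584537-9584564 (minus strand), the element beginning 164 and 50 bases before the RefSeq start.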

How the data were processed

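RNA was sequenced from 18 pools of aggregates. The authors quantified reads with Kallisto (0.43.0 in the submitters' processing notes) on GENCODE 24 transcripts and deposited 1 table of 145326 transcripts holding, for each sample, the estimated count and the TPM. The p-values, q-values and log2 fold changes of the authors' Sleuth comparisons in the same table were not used. Of the deposited estimated counts above 0, 88.8% were not whole, and TPM is scaled per length and per library by the authors. All per-sample columns were assigned by name.

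Estimated counts were summed by gene name and rounded, filtered with filterByExpr, scaled by TMM and tested with edgeR 4.0.16 (glmQLFit, glmQLFTest; R 4.3.3), 9 samples per line for the exposure contrasts and all 18 for contrasts between lines. P-values were adjusted by Benjamini-Hochberg over all genes tested, and a gene was called at an FDR below 0.05. TPM sums are given as levels. Common biological coefficients of variation were 0.180 (U87 mg), 0.256 (DAOY) and 0.223 (both). Alternatives used DESeq2 1.42.0, limma 3.58.1 on log2(TPM + 1) and log2(TPM + 0.1), other scalings and filters, other sample sets, protein_coding transcripts and libraries left out. The procedure was tested on simulated data. Same-group libraries differed beyond counting noise (chi-square per degree of freedom 9.59 to 51.4 over 18 pairs), so none was counted as a duplicate.

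Gene positions, exons and translations came from GENCODE 29 (GRCh38), promoters from RefSeq. Whether counting used strand is not given in the sources used here, so antisense overlaps and near-identical paralogs are uncertain. The members, role lists and motifs were chosen with earlier results of these data known. Named were the 12 most abundant members, up to 6 members per direction and comparison with the smallest p, members called at 8 h in both lines, members of the role lists, the genes at the threshold and called corepressor genes.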

Additional observations from a re-analysis of the deposited data

How the results depend on the processing

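The difference between the lines at 0 h was the stable result: 143 ZNF genes were called, and the count stayed within 121 to 146 under every alternative run except a 2-fold minimum, which left 96. Part of this stability follows from the rule. Of the calls, 61 higher and 4 lower in DAOY were genes with at least 5 TPM in 1 line only. The alternatives were not counted separately for genes with at least 5 TPM in both lines. The 8 h counts were not stable. In U87 mg the 6 calls became 3 with a 2-fold minimum, 11 with DESeq2, 0 with limma on log2(TPM + 1) or log2(TPM + 0.1), 3 on protein_coding transcripts, 0 with only the 6 samples compared, and 0 to 14 with a library left out. In DAOY the 15 calls became 9 with a 2-fold minimum, 26 with DESeq2, 4 and 5 with limma at the 2 pseudocounts, 24 with library totals as the only scaling (4 higher and 20 lower, against 5 and 10), 9 on protein_coding transcripts, 3 with only the 6 samples compared, 28 (7 higher and 21 lower) with all 18 samples in 1 fit, and 1 to 12 with a library left out. At 2 h in U87 mg the count was 0 in every alternative and 0 to 7 with a library left out. For the difference of the 8 h changes it became 1 with DESeq2, 2 with no filter and 1 on protein_coding transcripts. With the replicate block the 8 h counts were 3 in U87 mg and 6 in DAOY, and it changed no other count by over 1.5 times. The numbers were not taken to pair the samples, since same-numbered deviations correlated from -0.20 to 0.44 and not every pair passed 0.1. Between 2 h and 8 h alone all same-numbered pairs were positive (0.26, 0.15 and 0.19 in U87 mg, 0.44, 0.07 and 0.10 in DAOY), a hint of shared numbering that the labels do not state; the pairs with 0 h were of both signs. Of the 30 named changes that were recomputed under the alternatives none reversed its sign. The causes of these moves were not tested. The depth limits the genes near 0 in U87 mg, where single counts set the ratios.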

Other observations

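Other zinc finger families of at least 5 TPM, mostly Cys2-His2, were taken by name after the results were known. The ZFP names include ZFP36, ZFP36L1 and ZFP36L2, which are not Cys2-His2 proteins. Of these, ZFP36L1 and ZFP36L2 count among the ZFP genes called higher. The values that follow are from the quasi-likelihood test of edgeR (Benjamini-Hochberg adjustment). Of 10 ZSCAN genes 8 were called higher in DAOY than in U87 mg at 0 h and 1 lower (median log2 difference 1.28), of 3 ZKSCAN genes all 3 were higher (median 1.30), of 26 ZBTB genes 12 were higher and 6 lower (median 0.32), of 11 ZFP genes 7 were higher and none lower (median 0.59), and of 11 KLF genes 4 were higher and 4 lower (median 0.01). The shares of all genes, which met no rule on level, were 32.8% higher and 27.9% lower, and the ZBTB and KLF counts were near them. These families were taken by the mean over all 18 samples. Genes low in U87 mg therefore entered through DAOY alone and had to be higher there in the mean over all samples. Examples are ZSCAN31, at 0.346 to 1.62 TPM in U87 mg, and ZFP42, at 0 to 0.338 TPM. The counts were not limited to genes of at least 5 TPM in both lines.

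After 8 h KLF6, KLF13 and ZBTB40 were called higher in DAOY, by 0.58, 0.86 and 1.18 on the log2 scale, ZBTB14 was called lower there (-0.97), and the immediate-early gene EGR1 was called higher in both lines, by 1.66 in U87 mg (adjusted p = 0.049) and 1.17 in DAOY (adjusted p = 0.043). Of the ZFP genes tested, ZFP36L1, which encodes an RNA-decay factor and is no DNA-binding finger protein, was called lower in U87 mg (-0.65), and ZFP37, ZFP62 and ZFP90 were called lower in DAOY, by -0.99, -0.75 and -0.78. Among ZNF genes under 5 TPM, 17 of 232 were called lower and 1 higher at 8 h in DAOY, beside 3.5% and 2.34% of all genes, with a median log2 change of -0.35, and 2 of 136 lower in U87 mg, beside 0.773% of all genes, with a median of -0.36.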
